A study of Danio rerio with 24 samples.

Results

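Transcript levels of whole zebrafish larvae lacking Klf9 were compared with those of wildtype larvae at the moment the lights came on. The comparison used the 8 RNA-seq samples labelled ZT0, Zeitgeber time 0, of 24 samples in the series. 4 samples were klf9-/- and 4 were wildtype. Each was a pool of 6 whole larvae of 5 days post-fertilization (dpf). The klf9-/- fish were of the AB strain and homozygous for a CRISPR-made deletion of 2 bp in the first exon of klf9, which shifts the reading frame and brings a premature stop codon. The wildtype fish descended from the same grandparents as the mutants and carried no deletion. No larva of either genotype was treated. All were raised on a daily cycle of light and dark, and the series also holds 4 pools of each genotype taken 3 h before and 2.5 h after lights on.

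Klf9 is a zinc finger transcription factor of the Krüppel-like family that binds GC-rich DNA and represses many of its targets. Its own gene is switched on by glucocorticoids and by thyroid hormone, and in mammals its level follows the circadian clock. The liver, pancreas and gut of a larva of this age are functional and make plasma proteins, digestive enzymes and lipoproteins.

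Between 41444609 and 59894844 counts were assigned to genes in each klf9-/- pool, against 49713549 to 59393036 in each wildtype pool, and 22536 genes were tested. Levels are given as CPM, counts relative to the TMM-scaled library size. Differences are log2 fold changes of klf9-/- over wildtype from edgeR's quasi-likelihood test with Benjamini-Hochberg adjustment. The model held the genotype and the score of each pool on the first principal component of all 24 samples (PC1). The study's methods also used a first component as covariate. PC1 was recomputed here from the deposited log2 values (21.7% of the variance), and its scores need not equal the study's own. The study attributes its own first component mainly, and perhaps wholly, to a technical effect of how RNA was extracted. Whether the scores used here reflect that effect was not tested. A gene was called when its adjusted p was at most 0.1 and its log2 fold change at least 0.5 in size. PC1 scores, in SD units, were 1.288, 0.827, -0.38 and -0.731 in klf9-/- pools, against -1.436, -0.909, -0.22 and 0.72 in wildtype pools. The scores of the 2 genotypes overlapped and differed by 0.71 SD units (exact two-sided permutation test, p = 0.286, n = 4 pools a side, smallest possible p 0.0286). The samples were whole larvae, so more cells of a type and more RNA per cell cannot be told apart.

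At ZT0, 544 genes were called higher and 228 were called lower in klf9-/- larvae, which is 2.41% and 1.01% of the genes tested. Of those called, 318 higher and 117 lower genes had a gene symbol, and the rest carried clone or accession names. With no threshold on fold change, 1722 genes were higher (7.64%) and 1342 were lower (5.95%). Without klf9-/- replicate 4, which moved both counts most, 355 were called higher and 138 lower. Without PC1 in the model, 290 genes were called higher and 183 lower. Of the 544 higher calls, 263 were also called without PC1 and 538 kept a positive sign, and of the 228 lower calls, 154 were also called and 228 kept a negative sign. All 4 klf9-/- values lay above all 4 wildtype values for 1324 genes (5.88%) and below them for 1307 genes (5.8%).

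The mutated gene was measured first. klf9 had 20.7, 18.4, 19.1 and 23.1 CPM in klf9-/- pools, against 74.7, 58.4, 55.0 and 71.0 CPM in wildtype pools. Every klf9-/- pool lay below every wildtype pool, and the transcript was still present in all of them. klf9 fell by 1.64 on the log2 scale (SE 0.13, adjusted p = 5.8e-04 by edgeR's quasi-likelihood test). Of the 31 Klf and Sp factors tested, klf9 was the single one called. klf13, the close relative of klf9, had a log2 fold change of 0.07 (adjusted p above 0.1).

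**Figure D1:**
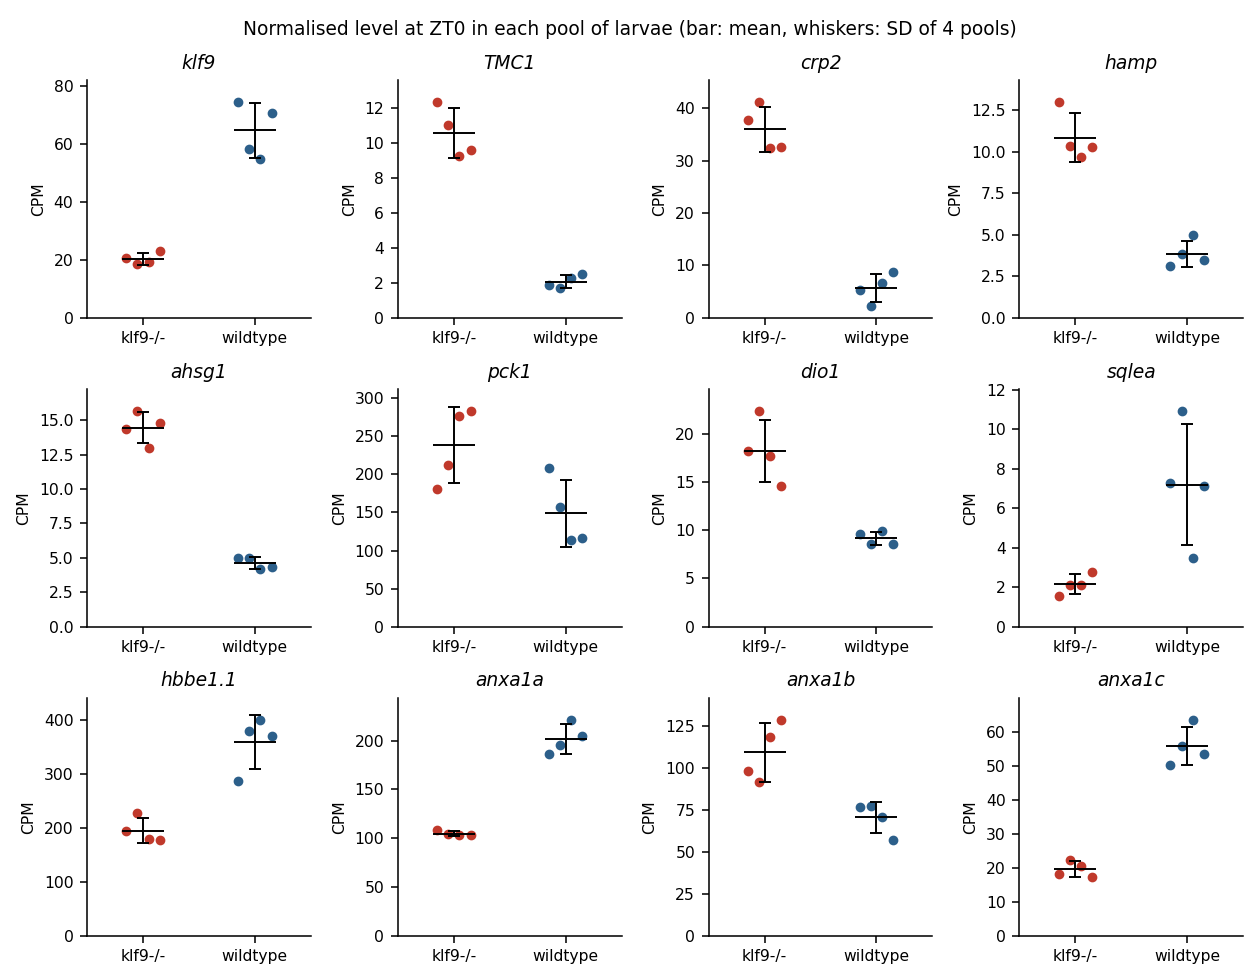
Level of 12 genes in each pool at ZT0, in CPM on a linear axis from 0, with klf9-/- pools in red at the left and wildtype pools in blue at the right. Horizontal bars are means and whiskers are SD over 4 pools. The groups do not overlap in any panel except that of pck1, where wildtype replicate 1 (209 CPM) lies above klf9-/- replicate 1 (181 CPM).

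The genes were read through 58 lists of tissue markers and pathways, which hold 1746 distinct tested genes. Called members were found in 35 of the lists. Among them, 105 genes were called higher and 27 lower. Over all genes tested, 2.41% were called higher and 1.01% lower. On adjusted p alone these shares were 7.64% and 5.95%, and 5.88% and 5.8% had no overlap. With PC1 in the model, higher calls were most frequent in lists of liver, lipoprotein, complement and digestive enzyme genes. Lower calls were most frequent in lists of sterol synthesis and globin genes. Without PC1, higher calls went from 19 to 0 in exocrine pancreas, from 13 to 1 in complement and from 13 to 2 in apolipoproteins. In liver plasma proteins and hepatocyte markers they went from 11 to 6. Below the fold threshold, the proteasome stood lower, and clock outputs and some photoreceptor genes stood higher.

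**Figure D2:**
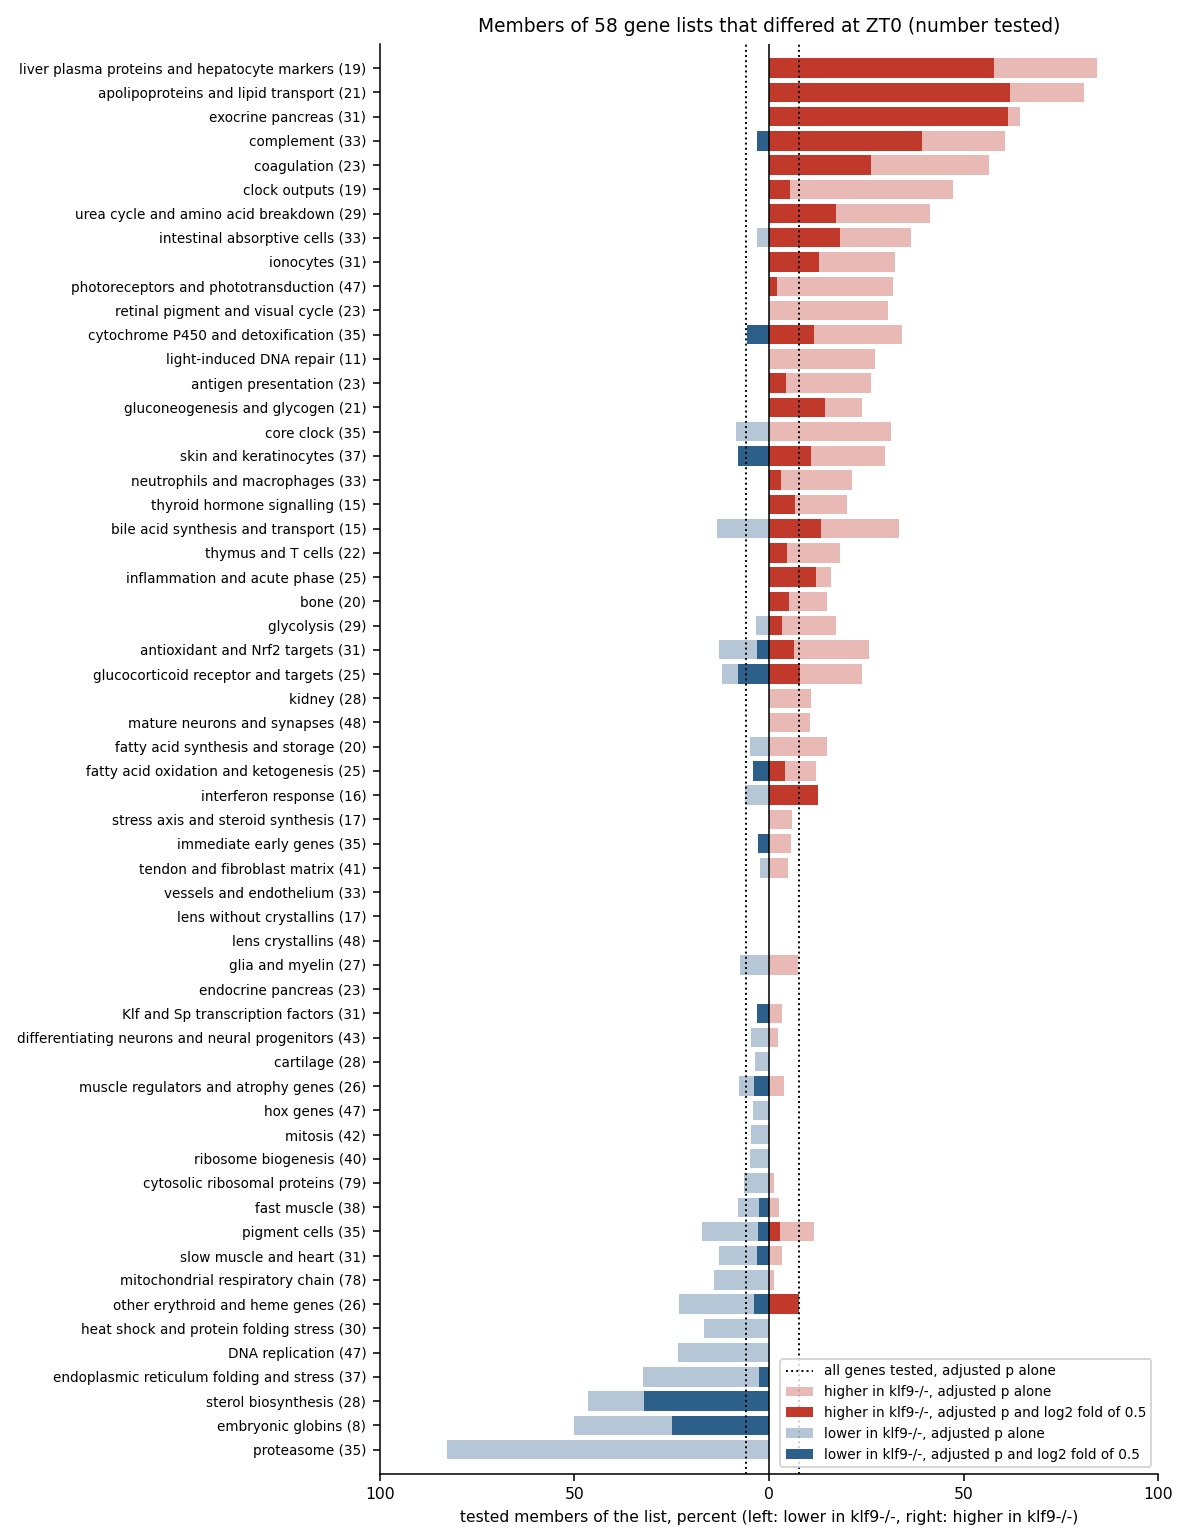
Share of the tested members of each of 58 gene lists that differed at ZT0, in percent, with the number tested in brackets. Bars to the right are members higher and bars to the left members lower in klf9-/- larvae. Pale bars count members at an adjusted p of 0.1 or less, and dark bars those that also passed a log2 fold change of 0.5. Dotted lines mark the pale share over all genes tested, 7.64% higher and 5.95% lower. Liver plasma proteins and hepatocyte markers stand at the top and the proteasome at the bottom.

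Genes of plasma proteins made by hepatocytes, listed together with other hepatocyte markers, were higher in klf9-/- larvae. Of 19 tested, 11 were called higher and none lower, 16 passed on adjusted p alone, and all 19 had a positive fold change. The median log2 fold change of the list was 0.54, beside -0.003 over all genes tested. Of all genes tested, 2.41% were called higher and 7.64% passed higher on adjusted p alone. In 5.88% the klf9-/- values lay above the wildtype values with no overlap. The list's summed level was 4334, 5480, 5497 and 5508 CPM in klf9-/- pools, against 4426, 4285, 3317 and 3406 CPM in wildtype pools. The sum of klf9-/- replicate 1 lay below that of wildtype replicate 1, and the other klf9-/- pools lay above every wildtype pool.

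The largest change in that list was in ahsg1, which encodes fetuin A, a secreted glycoprotein. ahsg1 had 14.4, 15.7, 13 and 14.8 CPM in klf9-/- pools, against 5.00, 4.97, 4.2 and 4.32 CPM in wildtype pools. The groups were far apart, with a log2 fold change of 1.66 (SE 0.09, adjusted p = 1e-05). The fatty acid binding protein of liver, fabp10a, which is a standard marker of zebrafish hepatocytes, had 267, 303, 245 and 243 CPM in klf9-/- pools, against 152, 154, 145 and 175 CPM in wildtype pools. Its log2 fold change was 0.68 (SE 0.07, adjusted p = 4.7e-04), again with no overlap. Ceruloplasmin, the ferroxidase that carries plasma copper, rose more on the model's scale (cp, log2 fold change 1.0, SE 0.14, adjusted p = 0.0091), but its values overlapped between genotypes. cp had 85.1, 124, 146 and 143 CPM in klf9-/- pools, against 105, 104, 65.1 and 47.4 CPM in wildtype pools. Of the 11 called members, 5 had no overlap between genotypes, which were ahsg1, fabp10a and, named here after their values were seen, fetub, hp and serpina1. Without PC1, 6 members were called and the median was 0.34.

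Complement and coagulation factors, which are also secreted by the liver, followed. Of 33 complement genes tested, 13 were called higher and 1 lower, and 20 and 1 passed on adjusted p alone. Over all genes tested, 2.41% were called higher and 1.01% lower, and 7.64% and 5.95% passed on adjusted p alone. The list's median log2 fold change was 0.43. Its summed level overlapped between genotypes, with 874 to 1472 CPM in klf9-/- pools, against 774 to 1164 CPM in wildtype pools. c3a.6 and c3b.2, copies of the central component C3, had log2 fold changes of 1.09 and 0.94 (SE 0.16 and 0.14, adjusted p = 0.0098 and 0.0093). c5 and c9, components of the terminal pathway, had 0.80 and 0.58. c7b, another terminal component, was the single higher call whose values did not overlap, with 3.40, 3.72, 3.22 and 3.61 CPM in klf9-/- pools, against 2.56, 2.41, 2.63 and 2.15 CPM in wildtype pools. The exception in direction was cfhl2, a relative of the inhibitor factor H, with 7.47, 7.46, 13.7 and 7.86 CPM in klf9-/- pools, against 16.7, 18.2, 15.7 and 13.9 CPM in wildtype pools. It fell by 0.69 on the log2 scale (SE 0.19, adjusted p = 0.068), and klf9-/- replicate 3 came close to the lowest wildtype pool. The call of cfhl2 was lost in 6 of the 8 fits that left out 1 pool. Without PC1, 1 complement gene was called higher and 1 lower, and the list's median was 0.30.

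Coagulation genes were higher by less. Of 23 tested, 6 were called higher and none lower, 13 passed on adjusted p alone, and the median log2 fold change was 0.32. Over all genes tested, 2.41% were called higher and 7.64% passed higher on adjusted p alone. Without wildtype replicate 3, 2 were called. The called members were f7 (0.63), fgg (0.59), f2, the prothrombin gene (0.56), plg, the plasminogen gene (0.55), serpinc1, the antithrombin gene (0.53), and fgb (0.51), with adjusted p from 0.0015 to 0.0065. fgg and fgb encode chains of fibrinogen. f7, which encodes the factor that starts the extrinsic pathway, had 9.02, 10.7, 11.2 and 9.74 CPM in klf9-/- pools, against 7.78, 7.30, 6.37 and 6.25 CPM in wildtype pools, with no overlap. Without PC1, 2 of the 23 were called.

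Apolipoproteins and enzymes of lipid transport had 13 of 21 tested members called higher and none lower, 17 on adjusted p alone, and a median log2 fold change of 0.56. apoa1b, a high density lipoprotein component and among the most abundant transcripts of these larvae, had 3069, 3402, 3993 and 3572 CPM in klf9-/- pools, against 2961, 2837, 2396 and 2221 CPM in wildtype pools. All klf9-/- pools lay above all wildtype pools, with a log2 fold change of 0.56 (SE 0.06, adjusted p = 8.7e-04). lipca, the hepatic lipase gene, showed the largest change of the list. It had 4.39, 6.45, 4.06 and 4.03 CPM in klf9-/- pools, against 2.29, 2.07, 1.58 and 1.18 CPM in wildtype pools, a log2 fold change of 1.47 (SE 0.26, adjusted p = 0.015). apoa4a, a component of lipoproteins of the gut, had a log2 fold change of 1.14 (adjusted p = 0.007) with overlapping values, and 0.62 (adjusted p = 0.41) without PC1. Without PC1, 2 of the 21 were called and the median was 0.32.

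Other metabolic genes of the liver were mixed in how far they moved. Over all genes tested, 2.41% were called higher. pck1, which encodes the enzyme that commits carbon to glucose synthesis, had a log2 fold change of 0.94 (SE 0.10, adjusted p = 0.0016), and g6pca.2 and g6pca.1, which encode glucose 6-phosphatase, had 0.89 and 0.60. These were the 3 called of 21 genes of gluconeogenesis and glycogen, and none of the 21 was called without PC1, where edgeR's adjusted p was 0.14 for pck1, 0.13 for g6pca.2 and 0.10 for g6pca.1. pck1 had 181, 213, 276 and 284 CPM in klf9-/- pools, against 209, 157, 113 and 117 CPM in wildtype pools, so that wildtype replicate 1 reached into the klf9-/- range. pklr, the liver form of pyruvate kinase, was the single called member of 29 glycolysis genes and did not overlap. It had 200, 221, 158 and 160 CPM in klf9-/- pools, against 104, 111, 90 and 113 CPM in wildtype pools (log2 fold change 0.72, SE 0.12, adjusted p = 0.011). ppp1r3ca, which encodes a subunit that brings protein phosphatase to glycogen, had 17.3, 20.5, 21.3 and 20.9 CPM in klf9-/- pools, against 9.92, 11.2, 10.5 and 10.4 CPM in wildtype pools (0.96, SE 0.07, adjusted p = 1.2e-04).

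Several enzymes of amino acid breakdown rose with no overlap between genotypes. Of 29 tested genes of this list and the urea cycle, 5 were called higher and none lower. On adjusted p alone 12 passed higher, and 10 had all klf9-/- values above all wildtype values. Over all genes tested, 2.41% were called higher, and the last 2 shares were 7.64% and 5.88%. hpda, an enzyme of tyrosine breakdown, had 71.6, 76.9, 73.8 and 72.7 CPM in klf9-/- pools, against 43.1, 41.2, 43.4 and 52.2 CPM in wildtype pools (log2 fold change 0.67, SE 0.06, adjusted p = 4.1e-04). tdo2b, the first enzyme of tryptophan breakdown, had 0.70, the arginase genes arg2 and arg1 had 0.61 and 0.55, and agxta, which encodes the aminotransferase that clears glyoxylate, had 0.50. None of these 5 overlapped between genotypes, and 4 of the 29 were called without PC1 and 3 without klf9-/- replicate 4. Of 15 genes of bile acid synthesis and transport, cyp8b3 (1.55, adjusted p = 0.026) and nr0b2a (1.05, adjusted p = 6.9e-04) were called. nr0b2a encodes a nuclear receptor that in mammals represses bile acid synthesis. cyp7a1, the rate-limiting enzyme of that pathway, had a log2 fold change of 0.01 (SE 0.13).

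Genes of sterol biosynthesis were lower. Of 28 tested, 9 were called lower and none higher. On adjusted p alone 13 passed lower, and 12 had all klf9-/- values below all wildtype values. Over all genes tested, these lower shares were 1.01% called, 5.95% on adjusted p alone and 5.8% with no overlap. The median log2 fold change was -0.35, and -0.36 without PC1, where 11 were called. The list's summed level was 471, 532, 498 and 518 CPM in klf9-/- pools, against 765, 798, 561 and 716 CPM in wildtype pools. Every klf9-/- pool was below every wildtype pool, and wildtype replicate 3 was the nearest. sqlea, which encodes squalene epoxidase, had 1.53, 2.12, 2.14 and 2.78 CPM in klf9-/- pools, against 7.29, 10.9, 3.48 and 7.11 CPM in wildtype pools, and fell by 1.58 on the log2 scale (SE 0.37, adjusted p = 0.05). msmo1 and cyp51, which remove methyl groups from lanosterol, fell by 1.15 and by 1.08 (adjusted p = 0.047 and 0.053). hmgcs1, which makes the substrate of the rate-limiting step, fell by 0.80 (SE 0.20, adjusted p = 0.064). The remaining called members were mvda, sc5d, ebp, tm7sf2 and hsd17b7. The rate-limiting gene hmgcra itself did not pass (log2 fold change -0.94, SE 0.28, adjusted p = 0.11), and insig1, whose product holds back the activation of sterol synthesis genes, had -0.08 (adjusted p = 0.59). The adjusted p of these genes lay near the threshold. No member was called without klf9-/- replicate 3 or without wildtype replicate 4, 1 without klf9-/- replicate 4 and 5 without wildtype replicate 1, while the median stayed between -0.387 and -0.278.

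Exocrine pancreas genes depended on the covariate. With PC1 in the model, 19 of 31 were called higher and none lower, and the median log2 fold change was 0.72. Over all genes tested, 2.41% were called higher. Without klf9-/- replicate 4, 12 were called. Without PC1, none was called in either direction by edgeR's quasi-likelihood test at an adjusted p of 0.1, and the median was 0.07. The summed level of the list was 1317, 2721, 4979 and 6314 CPM in klf9-/- pools, against 6496, 4023, 2442 and 1537 CPM in wildtype pools. The ranges overlapped almost in full, and in both genotypes the pools with the higher PC1 score had the lower sum. cpa1, a carboxypeptidase gene, had the largest fold change (1.39, SE 0.18, adjusted p = 0.0057, and 0.65 with adjusted p = 0.60 without PC1). prss1, which encodes trypsinogen, had 219, 395, 634 and 744 CPM in klf9-/- pools, against 724, 511, 336 and 246 CPM in wildtype pools, with a log2 fold change of 0.65 with PC1 and 0.13 without. ptf1a, which encodes the factor that specifies acinar cells, had a log2 fold change of -0.03 (adjusted p = 0.94). Absorptive cells of the intestine were similar but less extreme. There 6 of 33 genes were called higher with a median of 0.36, against 1 called and a median of 0.13 without PC1. The intestinal marker fabp2 did not pass (0.15, SE 0.10, adjusted p = 0.39). Of the called intestinal genes, apoa1a, apoa4a and apobb.1 are also members of the apolipoprotein list above. The intestinal count was 3 without klf9-/- replicate 2 or 3 and 12 without wildtype replicate 4. No gene of the endocrine pancreas was called among 23 tested, and none passed on adjusted p alone. ins, the insulin gene, had a log2 fold change of 0.18 (SE 0.18).

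**Figure D3:**
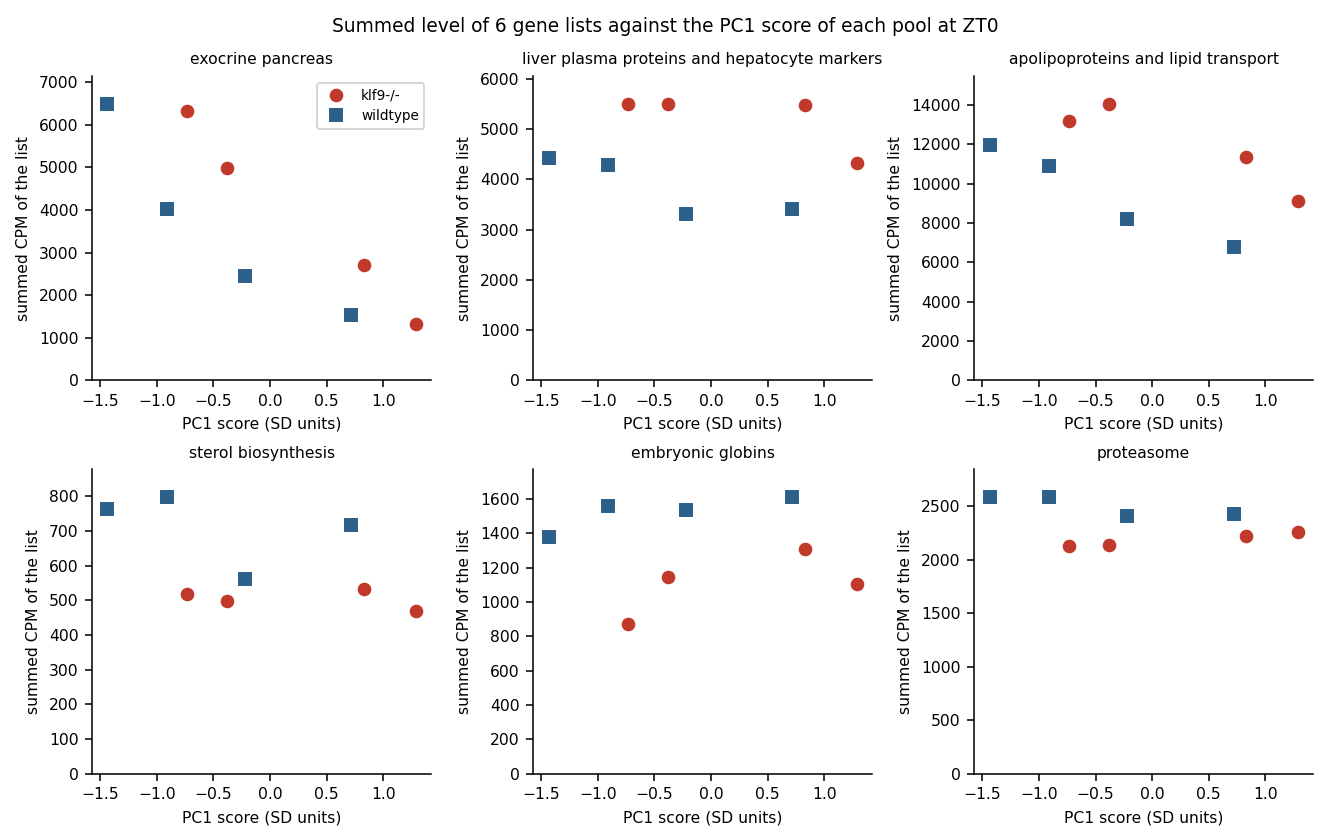
Summed CPM of 6 gene lists in each pool against the pool's PC1 score in SD units, with klf9-/- pools as red circles and wildtype pools as blue squares. The vertical axes start at 0. Exocrine pancreas sums fall with PC1 in both genotypes and overlap between them, and sterol biosynthesis, globin and proteasome sums are lower in all 4 klf9-/- pools than in all 4 wildtype pools.

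Embryonic globins, the oxygen carriers of larval red cells, were lower. Of 8 tested, 2 were called lower, 4 passed on adjusted p alone, all 8 had negative fold changes, and the median was -0.45. Over all genes tested, 1.01% were called lower and 2.41% higher, and 5.95% passed lower on adjusted p alone. The summed level was 1102, 1309, 1143 and 873 CPM in klf9-/- pools, against 1380, 1558, 1537 and 1609 CPM in wildtype pools, with no overlap. hbbe1.1 had 194, 228, 179 and 178 CPM in klf9-/- pools, against 288, 379, 401 and 371 CPM in wildtype pools, and fell by 0.98 on the log2 scale (SE 0.10, adjusted p = 0.0013). hbae3 fell by 0.71 (SE 0.13, adjusted p = 0.019). alas2, which encodes the first enzyme of heme synthesis in red cells, had 12.9, 18.1, 16.5 and 14.7 CPM in klf9-/- pools, against 25.5, 27.6, 26.7 and 23.1 CPM in wildtype pools, and fell by 0.68 (SE 0.11, adjusted p = 0.0076). alas2 belongs to a list of 26 other erythroid and heme genes, of which 21 had negative fold changes, with a median of -0.097. It was the single one called lower, and 2 were called higher. hmox1a, a heme oxygenase gene, had a log2 fold change of 1.19 (adjusted p = 3.6e-04), with overlapping values and 0.75 (adjusted p = 0.26) without PC1. blvrb, a biliverdin reductase gene, had 13.3, 15.9, 15.9 and 12.6 CPM in klf9-/- pools, against 5.86, 4.15, 7.14 and 1.08 CPM in wildtype pools (1.90, SE 0.52, adjusted p = 0.09). The call of blvrb was lost in 6 of the 8 fits that left out 1 pool. The globin, c3a, elastase and annexin A1 genes have paralogs, and how reads shared between copies were divided was not tested, so the values of single copies are uncertain.

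The inflammation list held 3 higher calls in 25 tested and no lower call. crp2, an acute phase gene of the C-reactive protein family, had 37.7, 41.2, 32.4 and 32.5 CPM in klf9-/- pools, against 5.28, 2.26, 6.59 and 8.65 CPM in wildtype pools. This was a log2 fold change of 2.48 (SE 0.29, adjusted p = 0.0067) with a wide gap between the groups. hamp, which encodes hepcidin, the hormone that limits iron export, had 13, 10.4, 9.69 and 10.26 CPM in klf9-/- pools, against 3.11, 3.81, 4.95 and 3.5 CPM in wildtype pools (1.4, SE 0.14, adjusted p = 7.5e-04). steap4, a metalloreductase gene, had a log2 fold change of 0.67. The remaining 22 members were not called. In the interferon list, ifi46 and stat1a were called of 16 tested. stat1a, which encodes the transcription factor of interferon signalling, had 69.0, 73.5, 69.5 and 82.7 CPM in klf9-/- pools, against 53.9, 50.9, 50.3 and 51.5 CPM in wildtype pools (0.55, SE 0.06, adjusted p = 5.9e-04). rag1, the recombinase gene of developing lymphocytes, was the single call among 22 thymus and T cell genes (0.68, SE 0.15, adjusted p = 0.028). lect2l was the single call among 33 genes of neutrophils and macrophages (0.94, adjusted p = 0.022, and 0.69 with adjusted p = 0.16 without PC1). Single calls in lists of this size are near the 2.41% called higher over all genes tested.

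Skin genes moved in both directions, with 4 called higher and 3 lower of 37. Over all genes tested, 2.41% were called higher and 1.01% lower, and 7.64% and 5.95% passed on adjusted p alone. The annexin A1 genes, which encode calcium-dependent membrane-binding proteins, differed among themselves. anxa1a had 108, 104, 103 and 103 CPM in klf9-/- pools, against 186, 195, 221 and 205 CPM in wildtype pools, and fell by 0.99 on the log2 scale (SE 0.05, adjusted p = 6.9e-06). anxa1c had 18, 22.3, 20.64 and 17.1 CPM in klf9-/- pools, against 50.4, 55.9, 63.6 and 53.6 CPM in wildtype pools, and fell by 1.55 (SE 0.10, adjusted p = 2.1e-04). Both were lower in every klf9-/- pool, whereas anxa1b was higher. It had 98.0, 91.6, 119 and 129 CPM in klf9-/- pools, against 76.5, 77.2, 70.9 and 57.2 CPM in wildtype pools (0.78, SE 0.06, adjusted p = 9.7e-05). Among keratins, krt96 had a log2 fold change of 1.3 (SE 0.15, adjusted p = 0.0034) with no overlap. The keratin markers krt4 and krt5 were not called. Of 31 ionocyte genes, 4 were called higher (trpv6, an epithelial calcium channel, the potassium channels kcnj1a.3 and kcnj1a.6, and ca15a, a carbonic anhydrase), and 1 was called without PC1 or without klf9-/- replicate 4. kcnj1a.6 was the single one of them with no overlap (0.72, SE 0.09, adjusted p = 0.0018). Of 35 pigment cell genes, 1 was called higher and 1 lower, and 4 and 6 passed on adjusted p alone. The single higher call is near the 2.41% called higher over all genes tested. The lower call was gch2, which fell by 1.11 (SE 0.22, adjusted p = 0.032). Its call was lost in 2 of the fits that left out 1 pool. gch2 encodes the GTP cyclohydrolase of pteridine synthesis and had 18, 35, 22.8 and 30.1 CPM in klf9-/- pools, against 62.9, 69.6, 58.4 and 52.7 CPM in wildtype pools.

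No core clock gene passed the fold threshold among 35 tested. On adjusted p alone, 11 were higher and 3 lower in klf9-/- larvae, against 7.64% and 5.95% of all genes. Several Cry proteins, the Per proteins and the product of ciarta are repressors of the clock's activators. ciarta had the smallest adjusted p, with 136, 133, 126 and 128 CPM in klf9-/- pools, against 103, 107, 110 and 118 CPM in wildtype pools (log2 fold change 0.21, SE 0.04, adjusted p = 0.0096). bhlhe40 (0.27), cry2 (0.20), cry1a (0.16), cry1b (0.34), per1a (0.18), per1b (0.19) and per3 (0.26) were higher with no overlap between genotypes, as were roraa (0.16) and cry5 (0.44), a photolyase gene. npas2 was also higher (0.38), with overlapping values, and had 0.25 without PC1 (adjusted p = 0.34 by edgeR's quasi-likelihood test). It is one of the genes within 5 Mb of klf9 described below, with 84 tested genes that have a symbol between. Lower were arntl1a (-0.29) and clocka (-0.30), which encode the activating pair, and cry4 (-0.37). Of these 3 lower genes, 1 had no overlap between genotypes. The paralogs clockb, arntl1b and arntl2 did not pass. per2, the light-induced period gene, had a log2 fold change of 0.09 (SE 0.09, adjusted p = 0.60), and neither nr1d1 (0.12, adjusted p = 0.32) nor cry3a (-0.11, adjusted p = 0.14) passed. Without PC1, 8 genes passed higher and none lower. Without klf9-/- replicate 4, 1 passed higher and none lower, and without klf9-/- replicate 3, 5 passed higher. The 3 lower ones became none without wildtype replicate 2, and 1 without klf9-/- replicate 1 or 2.

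Output genes of the clock showed the same small size of difference. Of 19, 9 were higher and none lower on adjusted p alone, and 7 had no overlap, beside 7.64% and 5.88% higher over all genes. Without klf9-/- replicate 4 it was 2 that passed, without klf9-/- replicate 3 it was 3, without wildtype replicate 4 it was 4, and without wildtype replicate 2 it was 5. dbpb, which encodes a PAR bZIP factor driven by the clock, had 202, 216, 199 and 208 CPM in klf9-/- pools, against 176, 167, 171 and 180 CPM in wildtype pools (0.24, SE 0.05, adjusted p = 0.012). nfil3-6, of the family that competes with these factors for DNA, was the single one called, with 17.3, 14.4, 11.6 and 13.9 CPM in klf9-/- pools, against 7.84, 5.86, 4.42 and 10.7 CPM in wildtype pools (0.84, SE 0.26, adjusted p = 0.099). Its call was lost in 5 of the 8 fits that left out 1 pool. Photoreceptor genes had 15 of 47 higher and none lower on adjusted p alone (8 higher without klf9-/- replicate 4), and 1 called. This was pde6ha, which encodes the inhibitory subunit of the cone phosphodiesterase, with 238, 189, 142 and 158 CPM in klf9-/- pools, against 76.1, 80.9, 80.4 and 122 CPM in wildtype pools (0.80, SE 0.09, adjusted p = 0.0024). The rhodopsin gene rho had a log2 fold change of 0.06 (SE 0.05), and none of 48 lens crystallin genes passed on adjusted p in either direction.

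**Figure D4:**
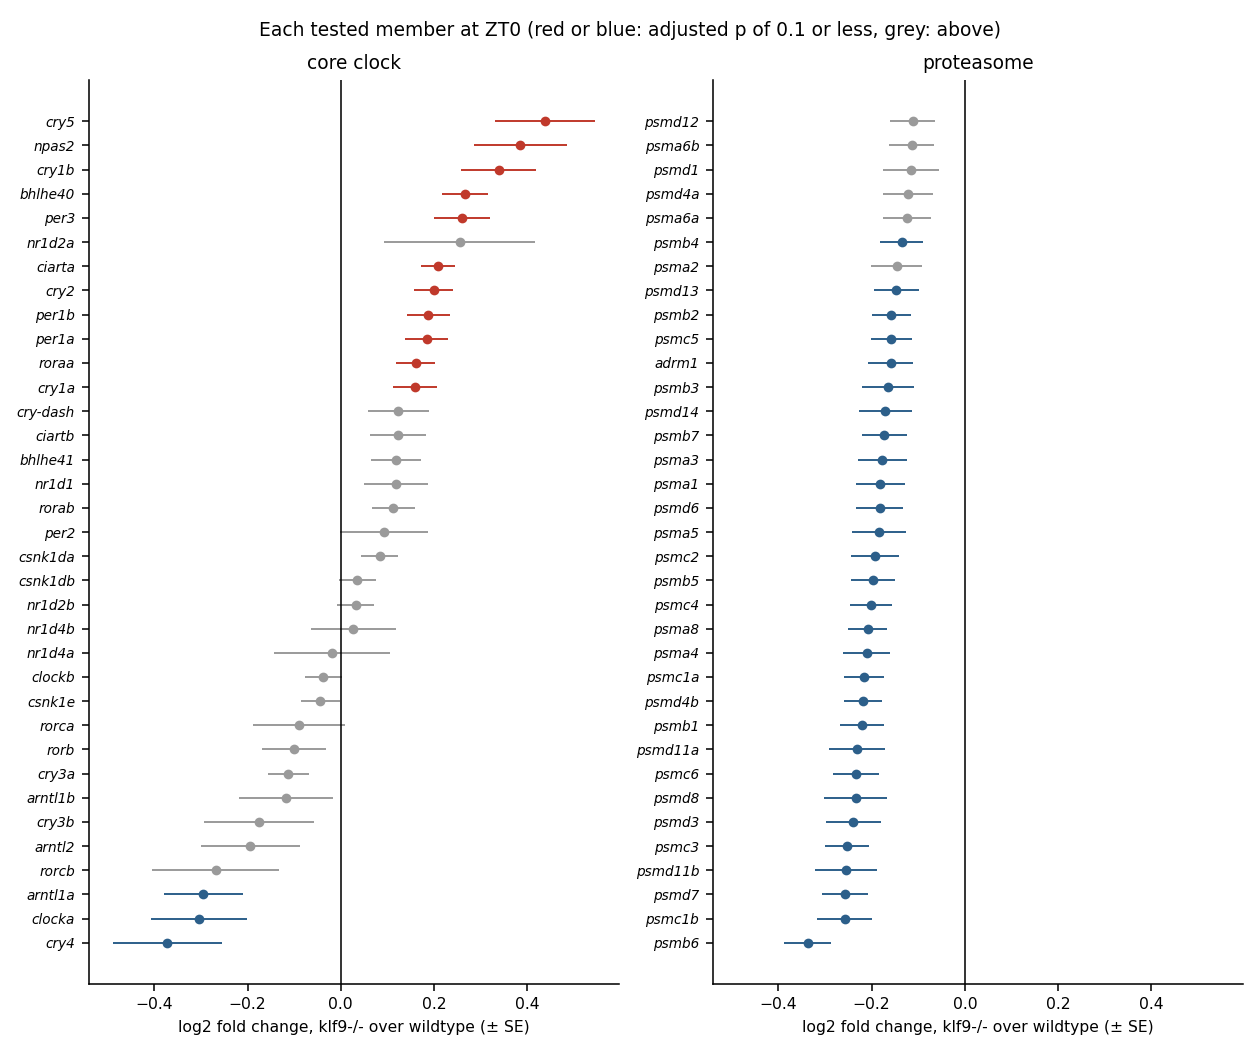
Log2 fold change of klf9-/- over wildtype with its SE for the 35 tested genes of the core clock (left) and the 35 of the proteasome (right) at ZT0. Coloured points passed an adjusted p of 0.1, red higher and blue lower in klf9-/- larvae, and grey points did not. Proteasome genes lie between -0.34 and -0.11 with no exception, and clock genes between -0.37 and 0.44.

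The proteasome, which degrades ubiquitin-tagged proteins, was lower by a small and even amount. Of 35 subunit genes, 29 were lower on adjusted p alone, none was higher and none passed the fold threshold. All 35 fold changes were negative, with a median of -0.185, or -0.193 and -0.182 under the other scalings tried. In 28 of the genes every klf9-/- pool lay below every wildtype pool, where 5.8% of all genes did. The summed level was 2261, 2226, 2137 and 2129 CPM in klf9-/- pools, against 2585, 2582, 2407 and 2423 CPM in wildtype pools. psmb5, which encodes a catalytic subunit, had 83.2, 79.0, 76.5 and 78.6 CPM in klf9-/- pools, against 91.2, 94.5, 86.0 and 90.2 CPM in wildtype pools (-0.20, SE 0.05, adjusted p = 0.031). psmd4b, which encodes a ubiquitin receptor of the regulatory particle, had a log2 fold change of -0.22 (SE 0.04, adjusted p = 0.012). Without PC1, 17 passed, without klf9-/- replicate 3 it was 7, without klf9-/- replicate 4 it was 3, and without wildtype replicate 2 it was 16, while the median stayed between -0.224 and -0.162. Genes of protein folding in the endoplasmic reticulum had 12 of 37 lower and none higher on adjusted p alone, with a median of -0.16. Without klf9-/- replicate 4 none of the 37 passed, without klf9-/- replicate 3 or wildtype replicate 4 it was 2, without wildtype replicate 2 it was 6, and without wildtype replicate 3 it was 20. ero1a, an oxidase gene of this list, was the single one called, and fell by 0.66 (SE 0.18, adjusted p = 0.056). DNA replication genes had 11 of 47 lower and none higher on adjusted p alone, with a median of -0.14, where 5.95% of all genes were lower. This count was 0 without klf9-/- replicate 4, 3 without klf9-/- replicate 3, 5 without wildtype replicate 4, 6 without wildtype replicate 2, 17 without wildtype replicate 3 and 5 without PC1. pcna, the replication clamp gene, was among them (-0.19, adjusted p = 0.097). A nearly uniform negative sign was not particular to the proteasome. It held for 46 of the 47 DNA replication genes, all 42 mitosis genes (median -0.171) and 39 of 40 ribosome biogenesis genes (median -0.16). On adjusted p alone, 2 mitosis genes and 2 ribosome biogenesis genes passed lower. Of 79 ribosomal protein genes, 78 were negative (median -0.068), but 73 were positive without PC1.

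Some genes of hormone and stress responses were called, where 2.41% of all genes tested were called higher and 1.01% lower. Of 25 genes of the glucocorticoid receptor and its targets, pck1 and g6pca.1 were called higher and klf9 and mt2 lower. Without PC1, no member of this list was called higher and 3 were called lower. mt2, a metallothionein gene, had 55.8, 56.3, 51.9 and 45.4 CPM in klf9-/- pools, against 79.8, 78.8, 80.5 and 86.0 CPM in wildtype pools, and fell by 0.70 (SE 0.05, adjusted p = 9.4e-05). The receptor gene nr3c1 was higher by 0.20 (SE 0.05, adjusted p = 0.029), and fkbp5, a widely used glucocorticoid target, had 0.13 (SE 0.12, adjusted p = 0.57). dio1, which encodes the deiodinase that activates and clears thyroid hormone, was the single call among 15 thyroid hormone genes. It had 18.3, 22.4, 17.8 and 14.6 CPM in klf9-/- pools, against 9.64, 8.56, 9.90 and 8.59 CPM in wildtype pools (0.93, SE 0.13, adjusted p = 0.0041). mybpc2b, a myosin binding protein gene, was the single call among 38 fast muscle genes and fell by 0.73 (SE 0.09, adjusted p = 0.0022). smyhc1, a slow myosin gene, was the single call among 31 genes of slow muscle and heart. It fell by 0.53 (SE 0.12, adjusted p = 0.035), and its call was lost in 4 of the 8 fits that left out 1 pool. Of 26 muscle regulator and atrophy genes, 1 was called lower, klhl38b, whose call was lost in 6 of these fits. Neither list had a call without PC1. No member was called in the lists of neurons, glia, lens, kidney, vessels, cartilage, tendon, ribosomal proteins or hox genes. In these lists between 0 and 5 members passed in either direction on adjusted p alone. Without wildtype replicate 4, 29 of 79 ribosomal protein genes passed lower and 13 of 48 genes of mature neurons passed higher.

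The largest changes lay mostly outside these lists. Among called genes with a symbol, a mean of at least 1 CPM and no overlap, trim35-1, of the family of ubiquitin ligases with a tripartite motif, had 1.51, 1.71, 2.57 and 2.91 CPM in klf9-/- pools, against 0.053, 0.323, 0.405 and 0 CPM in wildtype pools. Its log2 fold change of 3.80 (SE 0.58, adjusted p = 0.0099) rests on few counts in wildtype pools. itln2, an intelectin gene, followed with 3.21 (SE 0.38, adjusted p = 0.0027), then crp2, TMC1 and blvrb. itih3b, which encodes a heavy chain of the inter-alpha-trypsin inhibitor, a plasma protein, had 24.9, 38.0, 42.5 and 40.02 CPM in klf9-/- pools, against 19.8, 14.3, 8.74 and 11.5 CPM in wildtype pools (1.67, SE 0.21, adjusted p = 0.0064). Downwards, ahsa1a, which encodes an activator of the Hsp90 ATPase, fell by 2.28 (SE 0.55, adjusted p = 0.059), with values of 0.450, 0.362, 1.42 and 2.17 CPM in klf9-/- pools, against 4.80, 8.90, 9.83 and 3.08 CPM in wildtype pools. The call of ahsa1a was lost in 6 of the 8 fits that left out 1 pool. serpinb1l2, of the serpin family, fell by 1.61 (SE 0.35, adjusted p = 0.027), with all pools of both genotypes under 2.45 CPM. Genes with clone or accession names, under the same conditions of a call, a mean of at least 1 CPM and no overlap, reached larger changes. BX469930.1 had 52.03, 65.4, 53.1 and 55.1 CPM in klf9-/- pools, against 0.441, 0.133, 0.387 and 0.342 CPM in wildtype pools (7.39, SE 0.18, adjusted p = 1.2e-06). BX511112.1 had the largest decrease under these conditions, and fell by 2.92 (SE 0.35, adjusted p = 0.0023). CR936371.1 had between 7.07 and 7.77 CPM in klf9-/- pools and no count in any wildtype pool, and was at least 137-fold higher when set against a floor of 3 counts in a single wildtype library. slc14a2, a urea transporter gene, had 5.65, 5.89, 4.1 and 5.03 CPM in klf9-/- pools, against 1.64, 1.38, 1.42 and 1.64 CPM in wildtype pools (1.68, SE 0.13, adjusted p = 1.3e-04).

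Genes near klf9 on its chromosome were called more often than genes elsewhere. Positions came from the RefSeq gene table of another assembly than the one of the counts and were used for genes with a symbol, of which 96.6% could be placed. Within 5 Mb of klf9, 11 genes were called higher and 11 lower of 214 tested, which is 10.28%, against 2.37% of 15839 genes on other chromosomes. Without PC1 these shares were 7.48% and 1.38%. Between 5 and 20 Mb the share was 2.15%, and beyond 20 Mb 3.32%. Whole chromosomes ranged from 0.76% on chromosome 9 to 5.2% on chromosome 16, with 4.40% on the chromosome of klf9. Without PC1, chromosome 16 had 1.87% and the chromosome of klf9 3.68%. A difference that comes from alleles linked to the mutated copy of klf9 and one that follows from the loss of klf9 cannot be told apart here.

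Several of the clearest differences of the whole comparison were among these neighbours. TMC1 and tmc2b, which encode channel proteins of sensory hair cells and lie side by side, had 5 and 6 genes between them and klf9. All counts of genes between take only placed tested genes with a symbol. Genes with clone or accession names are left out, so more tested genes can lie between. TMC1 had 12.3, 11, 9.21 and 9.56 CPM in klf9-/- pools, against 1.85, 1.67, 2.26 and 2.48 CPM in wildtype pools (2.2, SE 0.09, adjusted p = 1.2e-06). tmc2b had 5.80, 4.47, 3.62 and 3.83 CPM in klf9-/- pools, against 1.15, 0.873, 1.14 and 1.33 CPM in wildtype pools (1.79, SE 0.14, adjusted p = 1.2e-04). Both were well separated by genotype. ctsll, a cathepsin L family gene with 31 genes between, had 1.17, 1.18, 1.34 and 1.16 CPM in klf9-/- pools, against 0.353, 0.360, 0.350 and 0.359 CPM in wildtype pools (1.78, SE 0.18, adjusted p = 5.8e-04). anxa1a, described above, had 9 genes between, and zfand5a, a zinc finger gene, had 4. zfand5a had 94.6, 85.9, 87.3 and 86.6 CPM in klf9-/- pools, against 137, 126, 147 and 138 CPM in wildtype pools, and fell by 0.66 (SE 0.05, adjusted p = 1.9e-04). ela3l, an elastase gene counted with the exocrine pancreas, had 1 gene between, and thy1 had 67. ela3l was less clear, with overlapping values and a log2 fold change of 1.21 (SE 0.23, adjusted p = 0.03 by edgeR's quasi-likelihood test). Without PC1 the change of ela3l was 0.63 (adjusted p = 0.51). anxa1c and anxa1b lay on the same chromosome but farther away, with 541 and 542 genes between them and klf9.

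**Figure D5:**
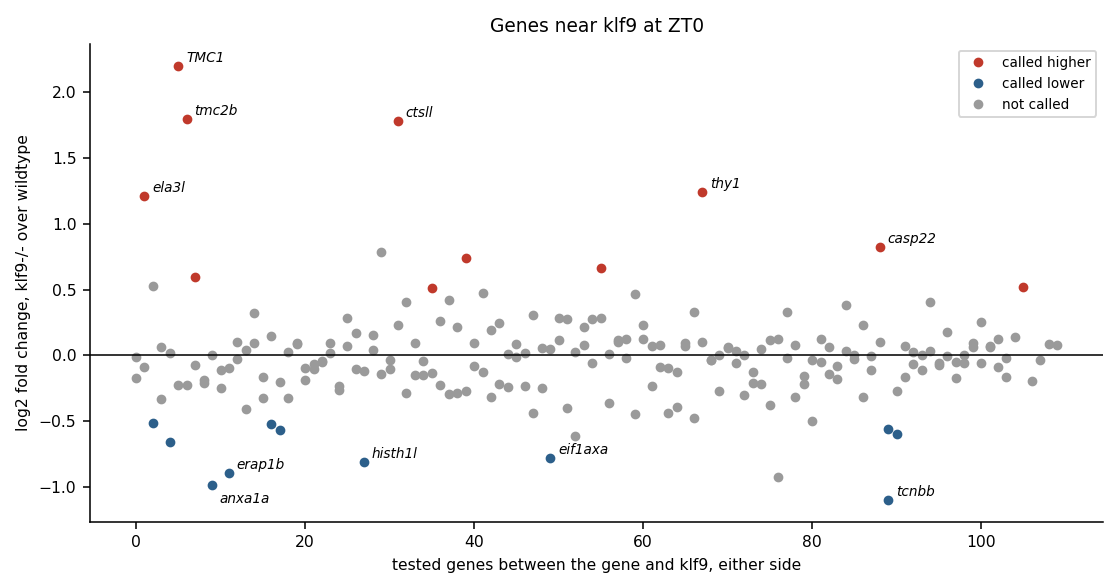
Log2 fold change of klf9-/- over wildtype at ZT0 for 214 genes with a symbol within 5 Mb of klf9. The horizontal axis is the number of placed tested genes with a symbol that lie between each gene and klf9 on either side. Red points were called higher and blue points lower, and called genes with the larger changes are named. TMC1, at 2.2, is the highest point and tcnbb, at -1.10, the lowest.

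The difference at ZT0 was set against the mean difference at the 2 other times in a model of all 24 samples. No gene of 23158 passed an adjusted p of 0.1 by edgeR's quasi-likelihood test, with a smallest adjusted p of 0.20. At an unadjusted p under 0.05 there were 882, which is below 5% of the genes tested (1157.9), and DESeq2 called 9. The smallest p belonged to abcb5, an ABC transporter gene, which was higher at ZT0 with 238, 227, 253 and 279 CPM in klf9-/- pools, against 199, 199, 176 and 177 CPM in wildtype pools. The difference between its log2 fold changes at ZT0 and at the other times was 0.51 (SE 0.09). It was 0.45 (SE 0.09, adjusted p = 0.33) for cyp26c1, which encodes an enzyme that breaks down retinoic acid, 0.85 (SE 0.17, adjusted p = 0.35) for mslna and -0.62 (SE 0.13, adjusted p = 0.35) for matn1, which encodes a cartilage matrix protein. In this model, the median log2 fold change of liver plasma proteins and hepatocyte markers was 0.37 before lights on, 0.63 at lights on and 0.53 after it. That of sterol biosynthesis was -0.42, -0.30 and -0.36, and that of the proteasome was -0.14, -0.16 and -0.22. These medians are a description, and a difference between times was not tested for the lists.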

How the data were processed

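RNA was prepared from pools of 6 whole larvae, and 75 bp single-end reads were sequenced. Per the labels and the study's methods, the authors trimmed reads with Trim Galore 0.6.5, aligned with STAR 2.7.5c to Ensembl release 101, estimated counts with RSEM 1.3.3 and summed genes that share a symbol. The deposited expected counts were rounded to whole numbers (18% were not whole). The deposited log2 values (rlog, by DESeq2) served only to compute PC1. The strand setting of the counting is not given in the sources used here, so overlapping genes on opposite strands cannot be told apart. The authors' own comparisons were not used. Nothing says whether pools came from separate clutches, so p-values measure the spread between these pools.

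Counts were filtered (filterByExpr), scaled by TMM and tested with edgeR 4.0.16 (robust quasi-likelihood, R 4.3.3) on the 8 ZT0 samples with genotype and PC1, with Benjamini-Hochberg adjustment over all genes tested. Fold changes used edgeR's default prior count, and a prior count of 2 entered only the log2 CPM values used to compare same-numbered pools. The contrast of ZT0 with the other times used all 24 samples. On simulated data with 200 genes changed by 1 on the log2 scale, the ZT0 fit recovered 93.5% and 12.6% of its calls were false. The simulated pools held no PC1 effect and genes were drawn independently, so these rates need not hold for the real calls. Same-numbered pools did not deviate together, so replicate numbers were not used as a block. Alternatives were DESeq2 1.42.0, other scalings, filters, thresholds and covariates, and leaving out each pool.

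The genes and lists were chosen with earlier results of these data known. The rule for named genes allowed klf9, the 10 largest changes each way with a symbol and the 5 largest each way of any name (called, a mean of at least 1 CPM, no overlap), the 10 smallest p, the called members of each list (all where 6 or fewer, otherwise the 2 largest and 2 smallest) with members that define the list, the core clock, the 5 largest changes within 5 Mb of klf9 and the 5 smallest p of the contrast. mvda, sc5d, ebp, fetub, hp, serpina1, klf13, krt4 and krt5 fall outside this rule and were named after their values were seen. Not every gene that the rule allows is named, and 1 of them is not reported here. Positions came from the RefSeq gene table and gave only neighbourhood and distance class. Leaving out a pool without PC1 was added after seeing the data.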

Additional observations from a re-analysis of the deposited data

Results flagged for a closer look

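In 340 groups of 4 pools (170 named genes in each genotype), 15 (4.41%) had 1 pool far from the other 3, measured as the gap to the nearest pool over the whole range and set against Dixon's 95% critical value, which chance passes in about 1 in 20 groups. In klf9-/- pools these were cbln9 in replicate 2 (3.91 CPM, the others 2.74 to 2.86), sp100.3 in replicate 2 (1.16 CPM, the others 0.342 to 0.481), lipca in replicate 2 (6.45 CPM, the others 4.03 to 4.39), si:ch73-7i4.2 in replicate 3 (0.576 CPM, the others 1.59 to 1.79), cfhl2 in replicate 3 (13.7 CPM, the others 7.46 to 7.86) and ctsll in replicate 3 (1.34 CPM, the others 1.16 to 1.18). In klf9-/- replicate 1 they were zfand5a (94.6 CPM, the others 85.9 to 87.3), serpinc1 (93.4 CPM, the others 117 to 120) and rag1 (4.95 CPM, the others 6.19 to 6.33). In wildtype replicate 1 they were c3a.6 (17.7 CPM, the others 12.3 to 13) and cyp2k6 (2.61 CPM, the others 1.38 to 1.48). In wildtype replicate 4 they were pde6ha (122 CPM, the others 76.1 to 80.9), bhlhe40 (174 CPM, the others 151 to 155) and bhlhe41 (128 CPM, the others 109 to 112), and in wildtype replicate 3 it was clocka (11.9 CPM, the others 9.74 to 10.1).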

How the results depend on the processing

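The count of higher genes moved from 544 to 290 without PC1, to 112 with replicate number as a block and no PC1, to 1722 with no fold threshold and to 161 at a log2 fold change of 1. The count of lower genes moved from 228 to 52 with the block and no PC1, to 1342 with no fold threshold and to 66 at a log2 fold change of 1. Leaving out 1 pool, with or without PC1, gave 159 to 568 higher and 79 to 277 lower genes. The contrast with the other times gave 9 genes by DESeq2, and 0 to 2 when 1 pool was left out. klf9 kept its call in every setting tried. DESeq2, other scalings, other filters, PC1 of the 8 samples and all 24 samples in 1 fit left both counts within 1.5 times. Of the named genes, 47 lost their call with the same sign without PC1, and 35 without klf9-/- replicate 4. The calls of blvrb, nfil3-6 and ahsa1a were each lost without any of several single pools, with adjusted p up to 0.19, 0.33 and 0.16 by edgeR's quasi-likelihood test. Without PC1, the log2 fold change was -0.077 for cpa5 (-0.084 with the block) and -0.256 for cpa4 (-0.239 with the block). Over all settings that left out a pool, with or without PC1, it was -0.474 to 0.769 for cpa5, -0.707 to 0.624 for cpa4, -0.373 to 1.129 for amy2a, -0.126 to 0.759 for prss1 and -0.094 to 1.402 for cyp2aa9. Leaving out a pool without PC1 was chosen after seeing the data.

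Same-numbered pools of the 2 genotypes deviated with correlations of -0.341, -0.108, 0.008 and -0.431, so the numbers do not pair the pools. Replicate number followed PC1 in opposite directions. From replicate 1 to replicate 4, the PC1 score fell from 1.288 to -0.731 in klf9-/- pools and rose from -1.436 to 0.72 in wildtype pools. With replicate number as a block and PC1, 541 genes were called higher and 230 lower. Depth limited genes with counts near 0, and for CR936371.1 the 3 counts that a count of 0 allows in 1 wildtype library came to 0.0541 CPM.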
